A study of Canis lupus familiaris with 18 samples.

Results

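The gene set described here holds transcripts that were more abundant in dog MDCKI kidney epithelial cells carrying bPAC than in the parental MDCKI cells, whether the cells were kept dark or illuminated. It has 62 members among the 32220 gene IDs of the tables. bPAC is a bacterial adenylyl cyclase that produces cyclic AMP under blue light, and cyclic AMP activates protein kinase A, which acts on transcription partly through CREB-family factors. MDCK cells are a dog kidney line that forms polarised monolayers and is widely used to study epithelial junctions and transport.

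There were 10 libraries of bPAC cells, 3 dark, 4 low light and 3 high light, and 8 libraries of parental cells, 3 dark, 3 low light and 2 high light. Cells of both lines were plated in 0.5% serum, and illumination began 16 h later and lasted 2 h. No label states the promoter of the transgene, how the bPAC line was derived or whether it is 1 clone. No label states a culture, date or batch for a replicate either, so the SDs and p-values cover differences between libraries that may be technical only. The transcript of bPAC itself was not analysed here, so the line labels were not checked against it. Genes carry Ensembl dog IDs without symbols in the tables, and the reference table held 0 of these IDs. Members are therefore given by ID, no function is assigned to any of them, and the cell type was not checked against marker genes. Genes are represented by reads from near the 3′ end of their transcripts, and levels are given as CPM, a gene's reads scaled to a common total of gene reads per library.

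Membership was decided on the group means of these same 18 libraries. A member had a difference between bPAC and parental cells of at least 1 in log2(mean CPM + 1), a fold of 2, in dark, in low light and in high light alike. Its level in bPAC cells moved by at most 0.8 on that scale from dark to either dose of light, and its highest group mean was at least 5 CPM. Of 7042 genes with that level outside the left-out range of 37 IDs, 321 met the line condition in the dark, 208 in low light, 200 in high light and 95 at every dose. The light bounds then removed 33 of the 95. The differences between the lines and the light changes in bPAC cells below are therefore a description of what was selected, and carry no test. Fewer cells with a transcript and less of it per cell cannot be told apart in such libraries.

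Every one of the 62 members was detected in each of the 10 bPAC libraries, and between 58 and 62 were detected in the parental libraries. Together they took from 1.70% to 2.32% of the gene reads in bPAC libraries, against 0.560% to 0.727% in parental libraries. The members ranged widely in level. Averaged over the 3 bPAC groups, 11 lay under 10 CPM, 28 between 10 and 100 CPM and 23 at or above 100 CPM, 4 of them at or above 1000 CPM. Over all 6 groups the median member stood at 38.6 CPM, beside 18.7 CPM for the 8530 genes tested. Members needed a group mean of at least 5 CPM and the tested genes did not, so nothing is read from this comparison. The median CPM over the members lay between 43.6 and 74.0 in bPAC libraries, against 13.9 to 17.8 in parental libraries, and no bPAC library reached the parental range.

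**Figure D1:**
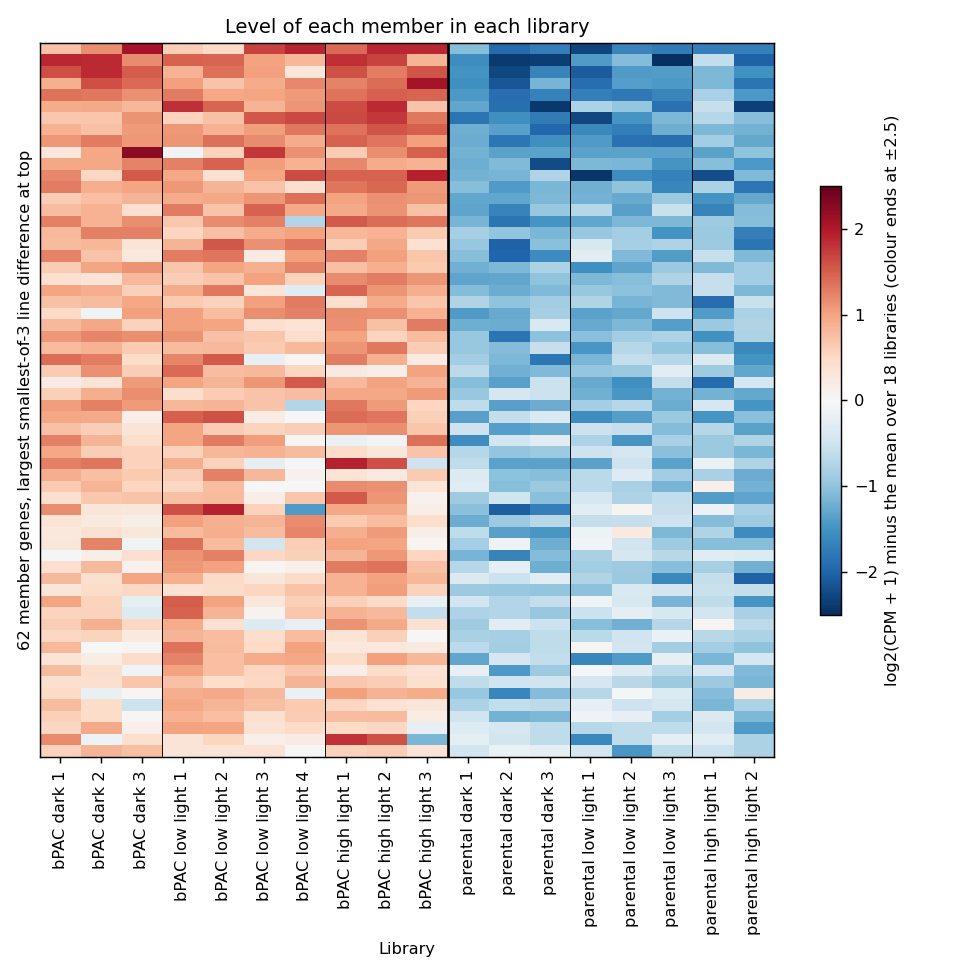
Level of the 62 members (rows) in the 18 libraries (columns, bPAC left and parental right of the thick line), as log2(CPM + 1) minus each gene's mean over all libraries, red higher and blue lower. Most rows are red in bPAC and blue in parental columns, and tiles of the other colour appear mainly in the lower rows, where the smallest of the 3 line differences is near 1.

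The difference between the lines had a median over the members of 1.66 in the dark, 1.68 in low light and 1.88 in high light on the log2(CPM + 1) scale, where all tested genes had medians of -0.04, -0.10 and -0.25. With libraries scaled by TMM, a scaling that sets the bulk of genes level, the medians of all tested genes were -0.01, -0.03 and -0.02 and those of the members 1.66, 1.75 and 2.14. CPM over gene reads thus placed bPAC high light libraries lower by a shift of -0.25 in the typical gene, and relative to it the members' difference in high light was larger than the rule's own scale shows. For 13 members the difference was at least 2, a fold of 4, at every dose, and for 22 the smallest difference lay under 1.2. The largest of a member's 3 differences fell in the dark for 21 members, in low light for 14 and in high light for 27.

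ENSCAFG00000008253 had the largest smallest difference, 2.95 in the dark, 3.18 in low light and 3.45 in high light. It had 7.09, 9.99 and 19.5 CPM in dark bPAC libraries, 6.54, 5.94, 14.8 and 17.4 CPM in low light and 12.2, 17.1 and 17.1 CPM in high light. The parental libraries held 1.35, 0.302 and 0.484 CPM in the dark, 0, 0.570 and 0.461 CPM in low light and 0.501 and 0.499 CPM in high light. The dark and the low light bPAC libraries each spanned more than the 3 group means did, and the lowest bPAC library stood 4.39-fold above the highest parental one. These levels rest on 565 reads in the bPAC libraries and 25 in the parental libraries.

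ENSCAFG00000003169 came next, and its difference was 3.72 in the dark, the largest of any member at any dose, with 2.79 in low light and 2.68 in high light. Its level was 314, 309.9 and 193 CPM in dark bPAC libraries, 236, 235, 170.2 and 152 CPM in low light and 305, 274 and 154 CPM in high light. The parental libraries held 28.1, 15.4 and 15.7 CPM in the dark, 31.1, 39.3 and 13.1 CPM in low light and 54.7 and 19.98 CPM in high light. The lines did not overlap, and the third library was the lowest of its group in dark and in high light bPAC cells. It was also 1 of the 2 members whose difference narrowed most from dark to high light, by -1.04, and its parental change in high light, a fitted log2 fold change of 0.96 (SE 0.50), was not called (edgeR adjusted p = 0.38).

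The most abundant member in dark bPAC cells was ENSCAFG00000008404. It had 5437, 5088 and 4749 CPM in dark bPAC libraries, 8759, 7982, 7826 and 9760 CPM in low light and 6808, 7315 and 5888 CPM in high light. Parental libraries held 1834, 2290.01 and 2651 CPM in the dark, 2839, 2905 and 2995 CPM in low light and 2028 and 2327 CPM in high light. No bPAC library came within the parental range, and within bPAC cells the 4 low light libraries stood above the others. Its level moved by 0.75 from dark to low light in bPAC cells, close to the bound of the rule.

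ENSCAFG00000006607 was the second most abundant, with 3194, 3021 and 4233 CPM in dark bPAC libraries, 3687, 3913, 4833 and 3559 CPM in low light and 5472, 5794 and 5175 CPM in high light. In parental libraries it held 959, 976 and 1199.8 CPM in the dark, 1097, 1149.5 and 1426 CPM in low light and 1604 and 1310.2 CPM in high light. The line difference stayed within a narrow band, at 1.74, 1.71 and 1.91 from dark to high light. Its level in bPAC cells rose by 0.65 from dark to high light, inside the bound of the rule. These 2 members took from 47.8% to 62.5% of all member reads in bPAC libraries and from 48.9% to 64.1% in parental libraries. Without them the remaining members still took 0.799% to 1.02% of gene reads in bPAC libraries, against 0.214% to 0.321% in parental libraries.

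**Figure D2:**
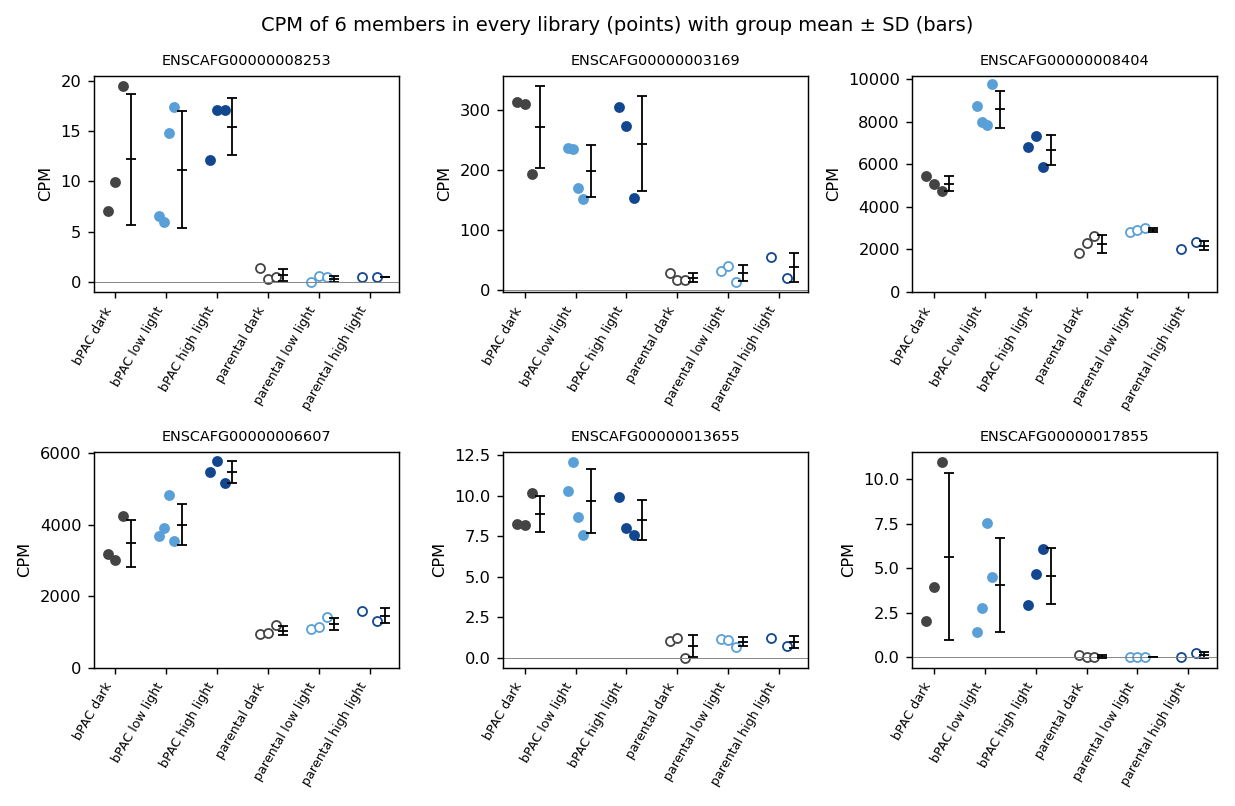
CPM of 6 members in every library, filled points for bPAC and open points for parental cells, with the mean and SD of each group beside its points; each panel has its own linear axis. All bPAC points lie above all parental points in each panel, and ENSCAFG00000008253 and ENSCAFG00000017855 spread widely among bPAC replicates.

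How cleanly the lines separated in single libraries was read from the lowest of the 10 bPAC and the highest of the 8 parental libraries, which the rule, set on means, does not fix. For 48 of the 62 members every bPAC library exceeded every parental library, whatever the light. Among all tested genes 1.63% did so, and 1.52% had every parental library above every bPAC library; since the members were chosen for this difference, nothing is read from the comparison. Within doses, all 62 members were separated in the dark (14.2% of tested genes), 58 in low light (8.16%) and 59 in high light (12.3%). For 20 members the lowest bPAC library was at least 2-fold above the highest parental one. The share of tested genes with such a gap is not given here, so nothing is read from this count.

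The widest gap was that of ENSCAFG00000013655, whose lowest bPAC library was 6.05-fold above its highest parental library. It held 8.24, 8.20 and 10.2 CPM in dark, 10.3, 12.1, 8.71 and 7.61 CPM in low light and 9.93, 7.99 and 7.58 CPM in high light bPAC libraries. No parental library exceeded 1.25 CPM, and 1 dark parental library had 0 reads. The bPAC groups overlapped one another throughout.

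ENSCAFG00000017855 followed with a gap of 5.61-fold, but on few reads. Its bPAC libraries held 9, 11 and 40 reads in the dark, 6, 13, 26 and 31 in low light and 21, 21 and 16 in high light. The 8 parental libraries held 2 reads in all, 1 in a dark and 1 in a high light library. In low light no parental library had a read, and against a floor of 3 reads over that group the pooled bPAC level was 17.1-fold higher. This value allows for counting error of the parental reads only, not for that of the bPAC reads or for differences between libraries. Altogether 6 members had at least 1 parental library without a read, and no member had a bPAC library without one.

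**Figure D3:**
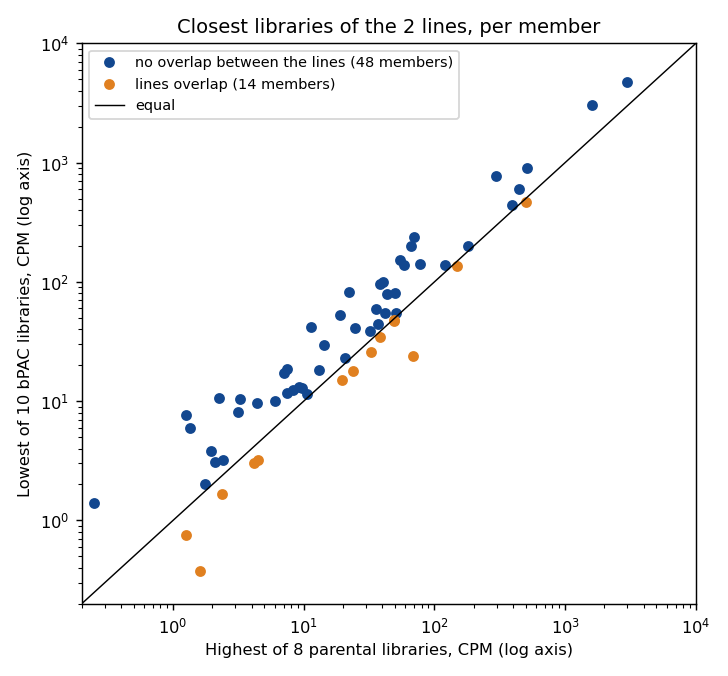
Lowest CPM among the 10 bPAC libraries against highest CPM among the 8 parental libraries for each member, both on log axes, with the line of equality. The 48 members above the line have no overlap between the lines, and the 14 below it overlap in at least 1 pair of libraries, from the lowest levels plotted upwards.

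The 14 members with overlap did not all have it through the same libraries. Only the lowest bPAC and the highest parental library of each were counted, though others could overlap too. In these members the lowest bPAC library was high light 3 in 4 cases, dark 3 and low light 3 in 3 each, and dark 2 and low light 4 in 2 each. Their highest parental library was low light 1 in 5 cases, high light 1 in 4, low light 2 in 3, and low light 3 and high light 2 in 1 each. Over all 62 members, bPAC low light 4 was the lowest bPAC library for 13 and bPAC high light 3 for 11, and parental high light 1 was the highest parental library for 19. bPAC high light 3 was the library with the fewest gene reads, 2638511, and had the largest share of reads aligned to more than 1 place, 44.4%; the part of either in these positions was not tested.

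The strongest overlap was that of ENSCAFG00000015033, which had 9.65 and 8.21 CPM in bPAC high light libraries 1 and 2 but 0.379 CPM, a single read, in library 3. Its other bPAC libraries held 5.95, 1.78 and 3.02 CPM in the dark and 2.80, 3.39, 2.32 and 2.49 CPM in low light. Parental libraries held 1.56, 1.21 and 0.968 CPM in the dark, 0, 0.950 and 1.61 CPM in low light and 1.504 and 0.749 CPM in high light. One low bPAC library therefore made the overlap, while the group means kept a difference of 1.02 or more.

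ENSCAFG00000008811 was the other member with a deep overlap and had the largest spread among replicates of all members. It had 146, 80.3 and 79.4 CPM in dark bPAC libraries, 201, 249.5, 97.6 and 23.7 CPM in low light and 127, 126 and 71.6 CPM in high light. In the parental libraries it held 30.9, 14.8 and 19.1 CPM in the dark, 53.8, 68.4 and 43.4 CPM in low light and 58.2 and 36.5 CPM in high light. The 4 bPAC low light libraries held both the highest and the lowest of its 10 bPAC values, and the lowest of them lay under every illuminated parental library. Its within-group SD was 0.85 on the log2(CPM + 1) scale, and that of ENSCAFG00000015033 was 0.80, the next largest. The median over the members was 0.36, beside 0.35 over all tested genes.

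On CPM over gene reads the difference between the lines moved by under 0.5 across the 3 doses for 37 members and by at least 1 for 5. The rule bounded the bPAC light changes and asked for a difference of at least 1 at every dose, which favoured small movements. The share over all tested genes is not given here, so these counts are a description only. On the same scale the line difference widened for 29 of the 62 from dark to low light and for 34 from dark to high light. In the TMM-scaled fit, which takes out the shift named above, it widened for 33 of the 62 at the low dose, beside 51.2% of all tested genes, and for 48 of the 62 at the high dose, beside 52.7%. The fitted line by light terms had medians over the members of 0.04 and 0.32 at the 2 doses, beside 0.01 and 0.05 over all tested genes. None of the members was called in an interaction by edgeR's quasi-likelihood test. At the low dose 0 had an unadjusted p under 0.05, where 3.27% of tested genes did with a positive and 2.67% with a negative term. At the high dose 9 members did, each with a positive term, where 6.68% of tested genes did with a positive and 7.21% with a negative term. Of all tested genes 0.0234% were called with a positive and 0.0117% with a negative term at the low dose, and 0.106% and 0.399% at the high dose. The rule bounded the bPAC part of these terms, so the counts are not read further.

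The difference widened most from dark to high light for ENSCAFG00000024171, by 1.04. It had 14.4 ± 5.19 CPM in dark (SD, n = 3), 13.5 ± 5.15 CPM in low light (SD, n = 4) and 20.9 ± 4.24 CPM in high light bPAC cells (SD, n = 3). In parental cells it had 2.45 ± 0.604 CPM in dark, 0.926 ± 0.553 CPM in low light (SD, n = 3 each) and 1.37 ± 1.23 CPM in high light (SD, n = 2). The mean was highest in high light in bPAC cells and in the dark in parental cells. The parental change in high light was not called (fitted log2 fold change -0.75, SE 0.62, edgeR adjusted p = 0.59). That in low light was not called either (fitted log2 fold change -1.22, SE 0.56, edgeR adjusted p = 0.16). ENSCAFG00000032725 was the next, with a widening of 1.02. It had 4.57 ± 1.40, 5.26 ± 2.30 and 7.94 ± 1.97 CPM from dark to high light in bPAC cells (SD, n = 3, 4 and 3), against 1.53 ± 0.849, 1.08 ± 0.140 and 1.00 ± 0.357 CPM in parental cells (SD, n = 3, 3 and 2). From dark to high light the difference narrowed by -1.01 for ENSCAFG00000008811. Its parental mean was 21.6 ± 8.33 CPM in the dark and 47.3 ± 15.3 CPM in high light (SD, n = 3 and 2). In parental low light it was 55.2 ± 12.6 CPM (SD, n = 3). The parental change in high light was not called (fitted log2 fold change 1.16, SE 0.68, edgeR adjusted p = 0.44). Nor was that in low light (fitted log2 fold change 1.37, SE 0.63, edgeR adjusted p = 0.17).

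**Figure D4:**
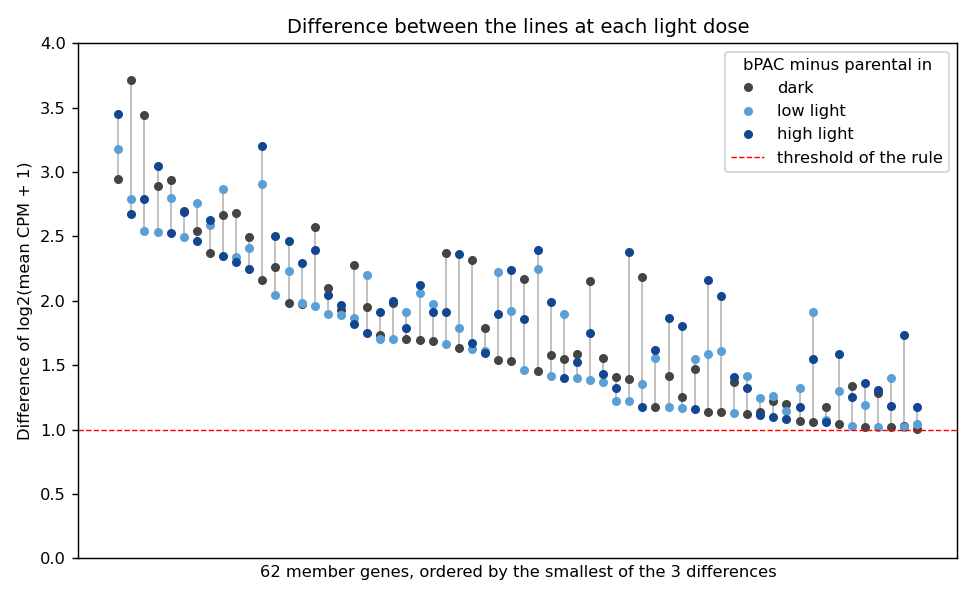
Difference of log2(mean CPM + 1), bPAC minus parental, in dark, low light and high light for each of the 62 members, ordered by the smallest of the 3 values; the grey line joins a member's 3 values and the dashed line is the threshold of 1. No dose is consistently highest, and 13 members lie at or above 2 at every dose.

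Within bPAC cells the rule allowed only small changes with light. From dark, the members' changes in log2(mean CPM + 1) had a median of 0.11 in low light, from -0.73 to 0.75, and 0.19 in high light, from -0.36 to 0.80. All tested genes had medians of -0.08 and -0.24 on this scale. With TMM scaling the members' medians were 0.21 and 0.51, all tested genes' were 0.02 and 0.04, and 56 of the 62 members lay above 0 in high light, where CPM over gene reads put 42 above 0. A bound set on CPM over gene reads therefore allowed somewhat larger increases than decreases relative to the typical gene. edgeR called 4 members higher in low light (17.2% of tested genes) and 11 higher in high light (12.7%). The most abundant member, ENSCAFG00000008404, was among those called at both doses, and ENSCAFG00000006607 among those called in high light. No member was called lower at either dose (18.1% and 11.9% of tested genes), and an unadjusted p under 0.05 with a lower level was found for 1 member in low light (23.1% of tested genes) and 0 in high light (18.6%). Since the rule bounded these changes, nothing is read from the counts.

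The cells labelled parental were taken to have no light-activated cyclase, which was not checked here. Whether light changed the members in them was a question on which the rule set no threshold. The parental means did enter the line differences, so a large rise in illuminated parental cells would have removed a gene near the threshold. The bound on light changes in bPAC cells would also have removed genes that light moved strongly and alike in both lines. Counts of called members may therefore be low through the rule itself, and nothing is read from their distance to the shares of tested genes. In low light 1 of the 62 members was lower than in the dark, where 4.68% of tested genes were called lower. None was called higher, where 6.76% of tested genes were. The test was edgeR's quasi-likelihood test with Benjamini-Hochberg adjustment over 8530 genes at 0.05, and all 62 members were among the genes tested. At an unadjusted p under 0.05, 6 members were higher (14.2% of tested genes) and 2 lower (14.2%) in low light. DESeq2 called 0 higher (7.5% of its tested genes) and 1 lower (6.8%).

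The called member was ENSCAFG00000015860. It had 44.7, 37.4 and 45.2 CPM in parental low light libraries, against 53.4, 78.0 and 71.1 CPM in parental dark libraries, and 45.1 and 42.2 CPM in parental high light. Every illuminated parental library lay below every dark one. The fitted log2 fold change in low light was -0.60 (SE 0.18, edgeR adjusted p = 0.037), and that in high light was -0.55 (SE 0.21, edgeR adjusted p = 0.21), which was not called. The low light call was lost without parental dark replicate 2 or 3 or any of the 3 parental low light replicates, with adjusted p between 0.0636 and 0.151. In bPAC cells the gene had 197 ± 38.6 CPM in dark, 164 ± 15.8 CPM in low light and 209.5 ± 7.65 CPM in high light (SD, n = 3, 4 and 3). The line difference was 1.53, 1.92 and 2.24 from dark to high light.

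In parental high light no member was called in either direction by edgeR, where 0.141% of tested genes were called higher and 0.0352% lower. At an unadjusted p under 0.05, 5 members were higher (8.12% of tested genes) and 1 lower (6.93%). DESeq2 gave an adjusted p for 54 of the 62 members and called 1 higher (1.38% of its 6545 genes with one) and 0 lower (0.688%). The fitted changes of the members had a median of 0.19 in low light, from -1.57 to 1.37, with 37 of 62 above 0, and of 0.07 in high light, from -0.83 to 1.40, with 36 of 62 above 0. All tested genes had medians of -0.01 and -0.02, with 49.0% and 48.5% above 0. Both contrasts use the same 3 parental dark libraries. High light rests on 2 libraries, and a change that missed the threshold there may still exist.

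**Figure D5:**
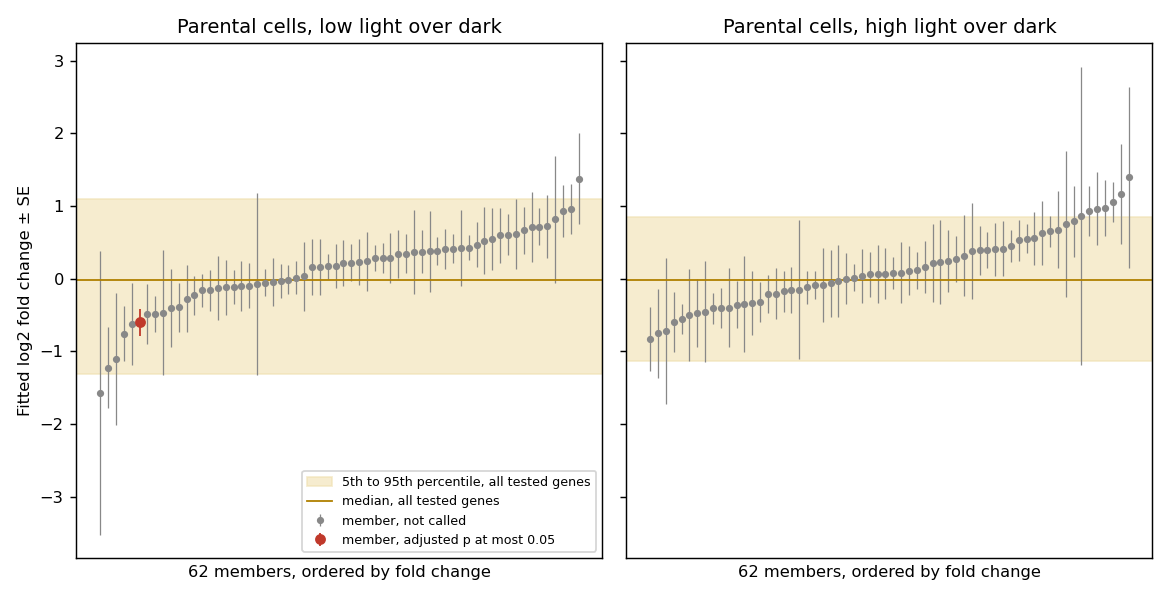
Fitted log2 fold change with its SE for the 62 members in parental low light over dark (left) and high light over dark (right), ordered by value within each panel; the band spans the 5th to the 95th percentile of all tested genes and its line is their median. Most members sit within the band, and the 1 called member, ENSCAFG00000015860 in low light, is drawn larger and in red at -0.60.

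At the edge of the rule, the members with the smallest difference were ENSCAFG00000017050, at 1.01 in the dark, and ENSCAFG00000015033, at 1.02 in low light. The genes just outside were ENSCAFG00000007298, at 0.99 in the dark, and ENSCAFG00000017636, at 0.98 in the dark. ENSCAFG00000017050 had 34.8, 42.4 and 39.3 CPM in dark bPAC libraries and 16.3, 20.6 and 19.6 CPM in dark parental libraries. ENSCAFG00000007298 averaged 22.5 CPM in dark bPAC cells and 10.8 CPM in dark parental cells.

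The mirror rule, with the lines exchanged, found 35 genes lower in bPAC cells at every dose. Their smallest differences had a median size of 1.11, against 1.49 for the 62 members, and 1 of the 35 reached 2 at every dose, against 13 of the 62. For 22 of the 35 every parental library lay above every bPAC library, which held for 1.52% of all tested genes. Since the 35 were chosen for this difference, nothing is read from that count. With TMM scaling the rule found 74 genes higher and 27 lower in bPAC cells. Both lists were chosen on these differences, so their sizes were compared with no test.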

How the data were processed

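Per the labels' protocols, RNA came from Lexogen's SPLIT kit and libraries from its QuantSeq 3′ FWD kit. The submitters' processing notes give CanFam3.1 as the build. Which aligner, annotation and counting program were used is not given in the sources used here. Deposited by the authors were raw whole-number read counts per gene ID for 18 libraries. Reads in the 5 rows without a gene entered no library size or test, and those with several alignments were 37.5% to 44.4% of a table. Gene reads ranged from 2638511 to 9610144 per library, and the lowest members rest on few reads. All 19 pairs of libraries within groups differed beyond sampling noise, with a chi-square of 8.43 to 63.9 per degree of freedom, and each library was counted as a replicate.

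CPM is a count divided by the library's gene reads and scaled to 1e+06. Members were found from group means with a pseudocount of 1 CPM. All libraries entered 1 model of 6 groups in edgeR 4.0.16 (R 4.3.3), with filterByExpr at a minimum count of 10, TMM, glmQLFit with robust estimation and glmQLFTest, and Benjamini-Hochberg adjustment over 8530 genes. Each SE is the size of the log2 fold change over the root of its F statistic. DESeq2 1.42.0 was an alternative. The script was tested on simulated data. The members, lists and tests were chosen with earlier results of these data known. Named members are at most 2 per category: largest smallest-of-3 line difference, highest level in dark bPAC cells, largest and smallest gap between the lines, called light changes in parental cells, largest widening and narrowing of the line difference, largest spread, and the edge of the threshold. Gene lists planned on symbols were not run, since IDs had none.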

Additional observations from a re-analysis of the deposited data

Results flagged for a closer look

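The level of ENSCAFG00000017050 in the 4 bPAC low light libraries was flagged because 1 library lay far from the other 3. The libraries held 29.0, 29.3, 29.9 and 23.1 CPM, and the gap of the lowest to its neighbour made up 0.861 of the whole range, above the critical value of 0.829 for 4 libraries. The low value was that of library 4, which rests on 158 reads. Of 14 values checked in this way 1 was flagged, and chance flags about 1 in 20.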

How the results depend on the processing

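The count of 62 members was within 1.5 times of itself under 24 of the 25 other settings tried. It was 93 with a threshold of 0.8 on the line difference, 40 with 1.2, and 57 to 67 on leaving out 1 library. Which genes met the rule depended more on the libraries than their number did: 30 of the 62 members were kept whichever library was left out, 32 were lost at least once, 22 through the line threshold, 15 through the light bounds and 3 through the level, and 33 further genes joined at least once. With TMM scaling 74 genes met the rule, 52 of them members. ENSCAFG00000008404 was lost without bPAC dark replicate 1, and ENSCAFG00000006607 and ENSCAFG00000017855 without bPAC dark replicate 3.

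In parental low light, members called higher numbered 3 with no filter on low counts and 1 with only the groups compared, and 0 to 2 on leaving out 1 library. The 2 came without bPAC low light replicate 4, and leaving out parental low light replicate 3 gave 1. Members called lower numbered 0 with no filter and 0 to 1 on leaving out 1 library. In parental high light, members called higher numbered 3 with no filter and 1 with DESeq2; the other settings gave 0, and none gave a member called lower. Apart from those of DESeq2 above, shares of all tested genes under these settings are not given here, so the counts are not read further. The cause of the changes in count was not tested. ENSCAFG00000015860 kept its sign under every setting, with log2 fold changes of -0.73 to -0.53, but had an adjusted p of 0.136 with no filter. No paired analysis was possible because the labels carry no replicate numbers; the numbers used here follow the order of the libraries within a group and only name them. Depth limits the members with few parental reads, where 6 had a parental library at 0.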
